A study of Mus musculus with 13 samples.

Results

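Lepr, Kng1, Nps, Medag and Ret are 5 genes whose counts were higher in cultured mouse glia given amyloid beta and the transcription factors Nurr1 and Foxa2 than in the matching glia given amyloid beta and a control virus. They were chosen by their culture counts, because the Nurr1 and Foxa2 library exceeded its amyloid beta control library in both hippocampal and cortical glia, and all 5 have values in all 13 libraries. They are 5 of 24542 gene symbols in the culture table and 5 of 23238 in the tissue table. The culture values that chose them are therefore given as a description, without a test, as are comparisons with untreated glia, which reuse the same N+F or amyloid beta control libraries. The tissue libraries share no library with the rule, and the tests are made there.

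The study delivered Nurr1 (gene symbol Nr4a2) together with Foxa2, a pair written N+F here, in an Alzheimer disease setting. Culture libraries came from glia of postnatal day 1 ICR pups. For each of hippocampal and cortical glia there was 1 library with control lentivirus and no amyloid beta (untreated), 1 with control lentivirus and amyloid beta (amyloid beta control) and 1 with N+F lentivirus and amyloid beta (N+F). Tissue libraries came from hippocampus of 3xTg mice, a line that carries mutant human APP and tau transgenes driven in neurons by Thy1 elements; the labels give no age. Of these, 3 had control AAV9 (an adeno-associated virus) and 4 had N+F AAV9, and the labels list amyloid beta as a treatment of all 7. Nothing in the labels says that replicates are separate animals, so tissue p-values measure the spread between these libraries, which may be technical. With 1 library per culture group there is no replicate error there.

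Nurr1 is an orphan nuclear receptor needed by midbrain dopamine neurons, and Foxa2 is a forkhead factor of floor plate, midbrain, liver and other endoderm. The 5 genes have different jobs. Lepr encodes the leptin receptor, which signals through Jak2 and Stat3 and is best known in hypothalamic neurons that control feeding. Ret encodes the receptor tyrosine kinase that answers to GDNF and its relatives when a GFRα co-receptor is present, and it marks midbrain dopamine neurons among others. Kng1 encodes kininogen, a plasma protein made mainly by liver, from which kallikreins release bradykinin. Nps encodes neuropeptide S, an arousal and anxiety-related peptide made by a few brainstem neurons, and Medag is an adipogenesis gene of mesenteric fat.

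Because both delivered proteins bind DNA, the bases just before the transcription starts are shown for the 3 genes that have an entry in the RefSeq promoter table (build GRCm38.p6), namely Lepr, Nps and Medag. Each line gives 250 bases ending at the base before the start, 5′ to 3′ on the plus strand, and the capitals in Nps mark a TATAAA box. The Lepr stretch lies at chr4:101717157-101717406, the Nps stretch at chr7:135268369-135268618 and the Medag stretch at chr5:149411499-149411748.
Lepr: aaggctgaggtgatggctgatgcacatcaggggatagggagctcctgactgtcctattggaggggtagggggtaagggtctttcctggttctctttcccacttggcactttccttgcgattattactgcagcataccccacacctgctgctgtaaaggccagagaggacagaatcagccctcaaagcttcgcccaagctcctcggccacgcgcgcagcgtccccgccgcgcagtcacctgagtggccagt
Nps: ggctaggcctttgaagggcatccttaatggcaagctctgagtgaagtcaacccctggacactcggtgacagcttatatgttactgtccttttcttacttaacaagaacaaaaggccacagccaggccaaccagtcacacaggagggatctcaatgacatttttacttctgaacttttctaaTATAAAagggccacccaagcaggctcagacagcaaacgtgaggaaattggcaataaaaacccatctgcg
Medag: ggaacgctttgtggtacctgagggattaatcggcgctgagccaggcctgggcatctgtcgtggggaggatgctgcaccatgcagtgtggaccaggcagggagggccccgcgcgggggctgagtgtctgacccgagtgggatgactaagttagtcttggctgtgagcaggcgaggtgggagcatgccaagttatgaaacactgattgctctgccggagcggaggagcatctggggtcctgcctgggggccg
The TATAAA box of Nps sat 69 to 64 bases before the start, and TATAAA was present on either strand in 13.6% of all 32851 promoter windows of 300 bases (250 before and 50 after a start). Lepr and Medag each had 1 further window in the table. In all 5 windows, both strands were searched for the Nurr1 monomer element AAAGGTCA, its core AGGTCA (which every AAAGGTCA also holds) and the forkhead core spelled TGTTTAC, with TGTTTGC accepted as well, and TATTTAC accepted along with its variant TATTTGC. None of the 3 elements was matched, and across all windows they were present in 1.51%, 16.3% and 13.5%. These letters say nothing of sites outside the windows or of binding, which was not measured.

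Kng1 has a near copy, Kng2, next to it in the kininogen cluster. A stretch is shown because it limits how far reads of the 2 genes can be told apart. The first 90 coding bases of a Kng1 and a Kng2 transcript in GENCODE M21 differ at 0 positions, and 1 line therefore stands for both.
Kng1 and Kng2: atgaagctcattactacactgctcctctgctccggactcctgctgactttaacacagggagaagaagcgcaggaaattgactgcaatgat
The longest identical run in the coding parts was 116 bases, and over 2256 aligned bases the transcripts were 91.1% identical. The sources used here do not say how reads that match both genes were counted, so Kng1 and Kng2 values are uncertain relative to each other.

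The culture libraries held 52189025 to 78273121 counts and the tissue libraries 10194437 to 25139406. A count of 0 allows up to 3 counts, which is 0.0383 to 0.0575 CPM (the count scaled by its library total) in culture and 0.119 to 0.294 CPM in tissue. Culture levels are CPM of the library total, and counting intervals and these floors cover counting error only. The delivered genes check the labels. Foxa2 was at 0 counts in all 4 culture libraries without N+F and at 140 and 13.5 CPM in the hippocampal and cortical N+F libraries. Nr4a2 stood at 58.3 CPM in untreated, 3.35 in amyloid beta control and 488 in N+F hippocampal glia, and at 18.99, 5.14 and 36.9 CPM in cortical glia. In tissue Nr4a2 was 31.5 ± 12.7 (SD, n = 3) in controls and 27.0 ± 4.85 (SD, n = 4) with N+F in TMM-scaled CPM, with an edgeR Benjamini-Hochberg adjusted p of 0.872. Foxa2 counts were 5, 1 and 1 in control libraries and 26, 5, 1 and 6 in N+F libraries, with a two-sided exact permutation p of 0.114, in a design whose smallest possible p is 0.0571 and which therefore cannot pass 0.05. Whether transcripts of the vectors were counted is not stated.

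Among the 5 genes, Lepr had the largest smaller-of-both-regions N+F ratio, and Lepr, Medag, Kng1 and Nps were at least 2-fold higher with N+F in both regions while Ret was so only in hippocampal glia. A ratio here is N+F over amyloid beta control on the log2(CPM + 1) scale, for genes reaching 1 CPM in a library of each regional pair. By that measure 279 of 13479 genes, 2.07%, passed 2-fold upward in both regions and 16, 0.119%, passed it downward. The choice rule itself, N+F above control by any amount in both regions, held for 3676 genes, 27.3%, so these 5 are few of the many it admits. At its edge lay Spty2d1 just inside, with log2 ratios of 8.8e-05 in hippocampal and 1.50 in cortical glia, and Gas6 just outside, with -6.5e-05 and 0.26. The median log2 ratio of all 13479 genes was 0.12 in hippocampal and -0.18 in cortical glia, and -0.01 and -0.02 after TMM scaling. Ordered by the smaller regional log2 ratio, Lepr stood first, Medag second, Kng1 5th, Nps 9th and Ret 422nd. The other genes among the first 10 were the delivered Foxa2, the extracellular matrix genes Fbn2 and Postn, and Gm13305, Tmem254c and Acpp.

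**Figure D1:**
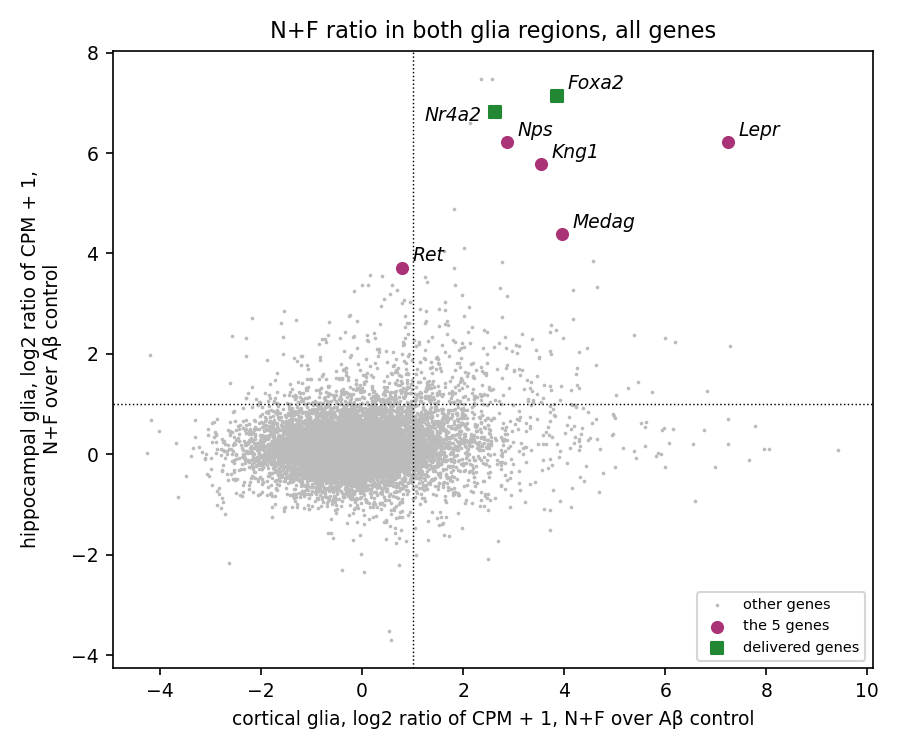
Log2 ratio of CPM + 1, N+F over amyloid beta control, in cortical glia (horizontal axis) and hippocampal glia (vertical axis) for 13479 genes. Each point is 1 gene from 1 library pair per region and dotted lines mark 2-fold. Lepr, Kng1, Nps and Medag lie beyond both lines, and Ret, at 0.80 in cortical glia, lies beyond the hippocampal line only.

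Of the receptors, Lepr was low in both amyloid beta controls and high in both N+F libraries. In hippocampal glia its level was 8.88 CPM untreated, 0.562 in the amyloid beta control and 115 with N+F, from 600, 42 and 6966 counts. In cortical glia it was 7.42, 0.0494 and 157 CPM, from 387, 3 and 12292 counts. The N+F libraries were the highest of the 3 in each region and the amyloid beta controls the lowest. The N+F to amyloid beta control ratio of CPM was 205 (95% counting interval 151 to 285) in hippocampal glia. In cortical glia it was 3179, with an interval of 1087 to 15415 that is wide because the control holds 3 counts. Against untreated glia, where the denominator is larger, N+F was 12.98-fold higher in hippocampal and 21.2-fold higher in cortical glia (intervals 11.9 to 14.1 and 19.1 to 23.5). The untreated libraries also differ from the others in cell type markers, given below. Ratios against untreated glia, here and below, therefore do not isolate the treatment.

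Lepr occupies 3 lines in the culture table, as many as its curated RefSeq transcripts, but the lines carry no transcript name. The second line held 95% of Lepr counts in the cortical N+F library and 79.5% in the hippocampal one. In untreated glia it held 60.7% in cortical and 78.3% in hippocampal glia. The receptor's long and short forms, which differ in their ability to signal to Stat3, could not be assigned to these lines.

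Ret behaved differently in the 2 regions. In hippocampal glia its level was 4.78 CPM untreated, 1.06 in the amyloid beta control and 26.0 with N+F, from 323, 79 and 1575 counts. In cortical glia it was 5.12, 4.41 and 8.42 CPM, from 267, 268 and 659 counts. N+F was thus the highest library in each region, but the cortical values lie close together. The N+F to amyloid beta control ratio was 24.6 (19.6 to 31.3) in hippocampal and 1.91 (1.65 to 2.21) in cortical glia. The cortical amyloid beta control held 4.17 times the Ret CPM of the hippocampal one (interval 3.24 to 5.44), while the untreated libraries had a hippocampal to cortical ratio of 0.934 (0.792 to 1.10). Of all genes, 4.95% were at least 2-fold higher with N+F in hippocampal glia and 11.6% in cortical glia. Of the 2 Ret lines, the second held 33.3% of the counts in hippocampal N+F glia and 8.9% to 24.3% in the other 5 libraries.

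Among the secreted products, Kng1 was at 0 counts in all 4 culture libraries without N+F. With N+F it reached 54.1 CPM in hippocampal glia (3273 counts) and 10.6 CPM in cortical glia (833 counts). Against the floor of 3 counts per control library the difference from the amyloid beta controls was at least 1348-fold in hippocampal and at least 215-fold in cortical glia, both higher with N+F. Kng1 also has 3 lines, of which the third held 81.9% of the counts in hippocampal and 80.8% in cortical N+F glia.

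Nps, a neuronal peptide gene, was near the floor without N+F. In hippocampal glia it had 9 counts in the untreated library (0.133 CPM), 9 in the amyloid beta control (0.120 CPM) and 4996 with N+F (82.6 CPM). In cortical glia it had 0, 0 and 490 counts, the last being 6.26 CPM. The N+F level was 686-fold that of the amyloid beta control in hippocampal glia (361 to 1501) and at least 127-fold higher in cortical glia.

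Medag, the adipogenesis gene, stood at 6.11 CPM untreated, 1.50 in the amyloid beta control and 51.4 with N+F in hippocampal glia, from 413, 112 and 3109 counts. In cortical glia it stood at 20.1, 0.346 and 19.9 CPM, from 1048, 21 and 1556 counts. Its N+F to amyloid beta control ratio was 34.3 (28.4 to 41.8) in hippocampal and 57.5 (37.5 to 93.1) in cortical glia. Against untreated glia the picture differed by region: N+F was 8.41-fold higher in hippocampal glia (7.59 to 9.35), and the cortical ratio was 0.990 (0.915 to 1.07), an interval that includes 1. With TMM scaling the latter ratio was 1.14 (1.06 to 1.24), so its direction depends on the scaling.

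**Figure D2:**
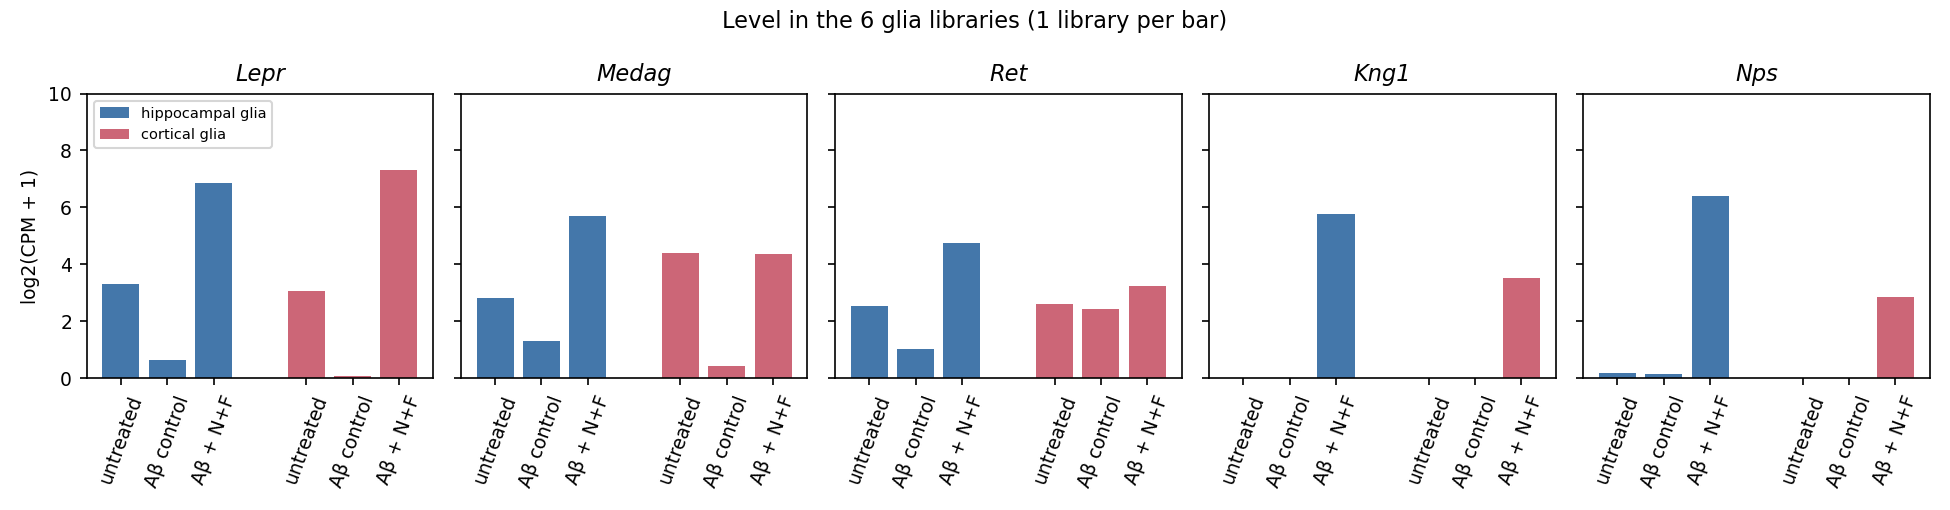
Levels as log2(CPM + 1) of the 5 genes in the 6 glia libraries, 1 library per bar, hippocampal in blue and cortical in red. Lepr and Medag are lowest in the amyloid beta controls, Kng1 is at 0 in the 4 libraries without N+F, and Medag in cortical glia reaches 19.9 CPM with N+F against 20.1 CPM untreated.

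The amyloid beta control served as the denominator of the choice rule, so its own distance from untreated glia is given as a description. On the log2(CPM + 1) scale, whose pseudocount shrinks differences of low levels, the amyloid beta control differed from untreated glia by -2.66 in hippocampal and -3.00 in cortical glia for Lepr, and by -1.51 and -3.97 for Medag. For Ret the values were -1.49 in hippocampal and -0.18 in cortical glia. Kng1 and Nps were at or near 0 on both sides. Thus Lepr and Medag, but not Ret, fell short of untreated glia by 2-fold or more in both regions. Of 14516 genes reaching 1 CPM in a library of each such pair, 21.5% did so and 16.6% were as far above. Kng1 and Nps did not reach that limit and are outside this count. The untreated and amyloid beta control libraries also differed in cell type markers. Summed levels of 10 neuron markers were 7104 and 7990 CPM untreated (hippocampal, cortical) against 357 and 366 in the amyloid beta controls and 376 and 365 with N+F. The same sum was 3998 to 5988 CPM in the hippocampus tissue libraries. Summed levels of 10 oligodendrocyte markers were 9704 and 8138 CPM untreated, 306 and 181 in the amyloid beta controls, and 262 and 483 with N+F. For 8 choroid plexus markers the sums were 4399 and 503 CPM untreated, 5.13 and 3.79 in the amyloid beta controls, and 15.9 and 406 with N+F. The last was mostly Aqp1, at 405 CPM. In bulk RNA, fewer cells of a type and less RNA per cell cannot be told apart, and the part of these markers in the differences of Lepr, Medag and Ret was not tested.

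The N+F libraries themselves differed between regions. The delivered genes were higher in the hippocampal one, Nr4a2 13.2-fold (12.7 to 13.7) and Foxa2 10.4-fold (9.73 to 11.1). In the same comparison Nps was 13.2-fold higher (12.03 to 14.5), Kng1 5.09-fold (4.71 to 5.49), Ret 3.09-fold (2.82 to 3.39) and Medag 2.59-fold (2.43 to 2.75). Lepr went the other way, with 1.36 times the CPM in the cortical library (1.32 to 1.40). Of 14158 genes, 17.3% had at least 2 times the CPM + 1 in the hippocampal N+F library and 7.06% in the cortical one. Each region is 1 library, so region and library cannot be told apart.

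**Figure D3:**
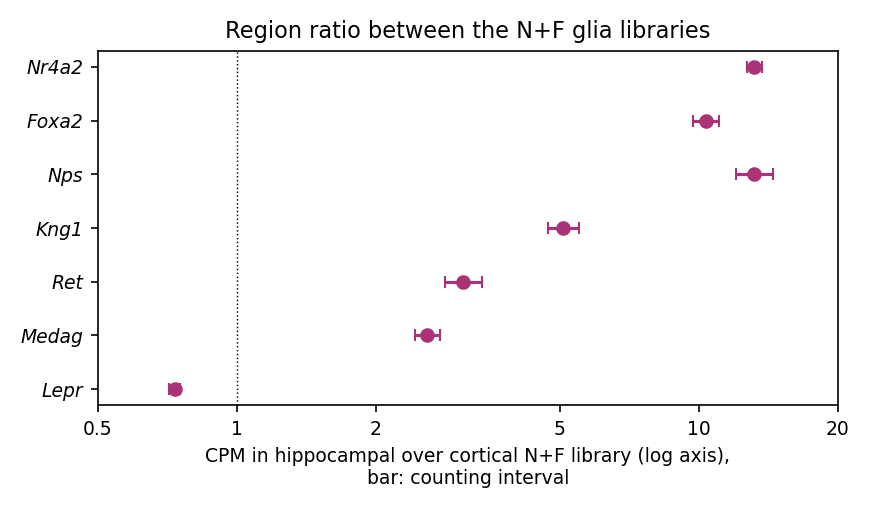
Ratio of CPM in the hippocampal N+F library to the cortical N+F library (log axis), with 95% counting intervals, for the delivered Nr4a2 and Foxa2 and the 5 genes. Nps lies at 13.2, the same printed value as Nr4a2, and Lepr alone lies below 1, at 0.734.

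The cortical N+F library also carried far more RNA of fibroblast and meningeal genes. The sum over 9 such markers was 15621 CPM against 782 in the cortical amyloid beta control, with the collagens Col3a1 at 2033 against 1.96 CPM and Col1a1 at 2894 against 47.0 CPM. The proteoglycan genes followed, Dcn at 329 against 0.494 CPM and Lum at 113 CPM against 0 counts. In the hippocampal pair the sum was 2633 against 1474 CPM. There Col3a1 was 33.6 against 31.7, Dcn 3.74 against 2.19 and Lum 0.893 against 0.897 CPM, and Fn1 made most of the difference at 2323 against 1172 CPM. Col1a1 was 111 against 110.2 CPM. The part of fibroblast RNA in the ratios of the 5 genes was not tested.

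Direct partners of the 5 genes did not share one pattern. Leprot, whose product is known to hold the leptin receptor back from the cell surface, was 70.3 CPM in the amyloid beta control and 101 with N+F in hippocampal glia (1.44-fold), and 71.5 and 138 CPM in cortical glia (1.92-fold). Kng2 was 0.294 and 3.64 CPM in hippocampal and 0.412 and 2.11 CPM in cortical glia (12.4-fold and 5.12-fold), subject to the shared sequence with Kng1. The bradykinin receptor genes were not higher in both regions: Bdkrb2 was 33.0 and 34.4 CPM in hippocampal and 20.8 and 7.61 CPM in cortical glia, and Bdkrb1 was 3.09 and 2.46, then 1.28 and 0.652 CPM. Npsr1, the neuropeptide S receptor, was at 0 counts in the hippocampal amyloid beta control and 9.23 CPM with N+F, at least 230-fold higher. In cortical glia it was 0.0329 CPM (2 counts) and 0.281 CPM, a ratio of 8.53 with an interval of 2.10 to 74.9.

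On the Ret side, Gdnf, the founding ligand, was 2.19 and 3.92 CPM in hippocampal and 0.543 and 9.68 CPM in cortical glia (1.79-fold and 17.8-fold). The GDNF co-receptor gene Gfra1 was 140 and 156 CPM in hippocampal and 168 and 108 CPM in cortical glia. Gfra2, which pairs Ret with neurturin, was 6.60 and 6.23, then 2.60 and 3.25 CPM. Ret and Gdnf therefore had their larger ratios in opposite regions, each from 1 library pair.

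Wider lists around each gene were counted by the same 2-fold rule, over genes that reached 1 CPM in a library of each regional pair. Of all 13479 such genes, 2.07% were higher in both regions and 0.119% were lower. The full lists held 18 leptin, 18 kinin, 15 arousal, 26 GDNF and 22 adipogenesis genes. Genes under the limit in 1 region were left out whatever they did in the other, Npsr1 among them. Of 17 leptin signalling genes past the limit 0 were higher in both regions, as were 0 of 20 GDNF family and Ret signalling genes and 0 of 3 arousal peptide and receptor genes. Of 11 kallikrein and kinin genes 3 were higher, namely Kng2, Ace and Prcp. Kng2 shares sequence with Kng1, so its value may not be independent, and it reached 1 CPM only with N+F. The kinin-degrading Ace was 7.47 and 110 CPM in hippocampal and 8.79 and 33.5 CPM in cortical glia. The carboxypeptidase gene Prcp was 16.4 and 37.9, then 7.02 and 36.9 CPM. Of 18 adipogenesis genes 3 were higher, namely the transcription factors Cebpb and Klf5 and the lipase Lpl, with log2 ratios of 2.89 and 1.52, 2.66 and 1.68, and 1.18 and 2.47 in hippocampal and cortical glia. None of these 5 lists had a gene at least 2-fold lower in both regions. Their medians in hippocampal and cortical glia were 0.09 and 0.03 for leptin signalling, 0.86 and 0.88 for kinin genes, 0.26 and 0.79 for arousal genes, 0.26 and 0.34 for GDNF genes and 0.06 and 0.33 for adipogenesis. The medians of all genes were 0.12 and -0.18.

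Lists tied to the delivered factors held 17 dopamine neuron, 28 liver and endoderm and 13 floor plate genes, most of them under the 1 CPM limit. Each list had 1 gene at least 2-fold higher in both regions, as were 2.07% of all 13479 genes past the limit. Of 6 dopamine neuron genes past the limit the one was Gch1, which makes the cofactor of tyrosine hydroxylase, with log2 ratios of 1.21 and 1.05. Of 4 liver and endoderm genes the one was the fibrinogen gene Fgb, at 0 counts in both amyloid beta controls and 8.07 and 2.96 CPM with N+F. With controls at 0, Fgb passed the 1 CPM limit only through N+F. Passing the limit then fixed its place among the higher genes, so that count decides nothing for the list. Of 6 floor plate genes the one was the sulfatase gene Sulf1, with 1.30 and 2.60. Genes left out could still differ in 1 region. From amyloid beta control to N+F, Slc18a2 was 0 and 16.5 CPM and Shh 0.857 and 6.38 CPM in hippocampal glia. In cortical glia Slc18a2 was 0 and 0.0383 CPM and Shh 0.0494 and 0.0511 CPM. Msx1 was 0.774 and 22.6 CPM in cortical glia, and 0.923 and 0.695 CPM in hippocampal glia. No gene of these 3 lists was at least 2-fold lower in both regions, and their medians were 1.07 and 0.30, 0.15 and 0.96, and 0.73 and 0.09. Over all genes the medians were 0.12 and -0.18.

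Genes with the most similar level pattern over the 6 culture libraries were found by Euclidean distance between centred log2(CPM + 1) profiles among 15486 genes. For Lepr they were Fbn2 (distance 2.83), Postn (3.14) and Gm13305 (3.31). For Kng1 they were Nps (0.935), Foxa2 itself (1.22) and AW112010 (1.50), and for Nps they were AW112010 (0.909), Kng1 (0.935) and Foxa2 (1.14). For Medag they were Fbn2 (1.75), Lrrc3 (2.04) and Itgb3 (2.23), and for Ret they were Nckap1l (0.957), Klf5 (1.08) and Aldh1a1 (1.11). The 5 genes therefore formed no single pattern: Nps lay nearest to Kng1, with a Pearson r of 0.99, whereas r between Medag and Nps was 0.73. These are descriptions over 6 libraries that share the N+F and amyloid beta conditions.

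In 3xTg hippocampus, which the choice rule did not use, none of the 5 genes passed the test. Lepr, Medag and Ret passed the low-count filter and differed between groups by less than the spread, Kng1 had counts in 1 library only, and Nps had none. edgeR's quasi-likelihood test with Benjamini-Hochberg adjustment, threshold 0.05, called 17 of 15523 genes, 0.110%, of which 1 was higher (0.00644%) and 16 were lower (0.103%), and 1313 genes had an unadjusted p under 0.05. The number called was 0 without any 1 of the 4 N+F libraries, 3 without control 2, 1 without control 3 and 29 without control 1. So 0 of the 3 genes tested were called, a count that the background share would also give.

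Controls 1 to 3 had Lepr levels of 19.9, 19.8 and 16.2 in TMM-scaled CPM, and N+F libraries 1 to 4 had 23.6, 17.8, 17.2 and 14.96. The highest and the lowest library were both N+F libraries, so the groups overlapped. The log2 fold change was -0.02 ± 0.17 (SE), with a 95% interval of -0.40 to 0.36 and an edgeR adjusted p of 0.987. Ret levels of 5.37, 3.93 and 3.48 in the control libraries overlapped those of 5.32, 3.94, 4.94 and 4.40 in the N+F libraries. Its log2 fold change was 0.11 ± 0.26 (SE), interval -0.46 to 0.68, with an edgeR adjusted p of 0.950. Medag was 6.80, 5.60 and 4.51 in controls, a range that held all 4 N+F values of 5.62, 5.99, 5.73 and 5.52. Its log2 fold change was 0.01 ± 0.23 (SE), interval -0.48 to 0.50, with an edgeR adjusted p of 0.996.

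Kng1 was at 0 counts in all 3 controls and in N+F libraries 1 to 3, and at 27 counts, 2.20 CPM of the library total, in N+F library 4. That library stood apart in the number of symbols with any count, 20221 from 12260884 counts, against 17739 to 19217 in the other 6 libraries. The two-sided exact permutation test over the 35 arrangements of these libraries gave p = 1. With counts in 1 library only, it could not give a small p whichever group that library was in, so it decides nothing. Without the count filter, edgeR gave Kng1 an unadjusted p of 0.018 and an adjusted p of 0.494. DESeq2 gave an unadjusted p of 0.131, and both fits rest on N+F library 4 alone. In the same library Kng2 had 14 counts (1.14 CPM), against 1 count in control 2 and 0 in the other 5 libraries. The bradykinin receptor gene Bdkrb2 had 9 counts (0.734 CPM) there, against 0 in the other N+F libraries and 1 to 3 in the controls. Foxa2 had 6 counts in that library and 26 in N+F library 1, where Kng1 had 0. N+F library 4 also had the highest summed level of 8 choroid plexus markers, 4022 CPM, against 1144 to 3180 in controls and 147 to 850 in the other N+F libraries, and the part of that tissue, or of the wider detection, in the Kng1 counts was not tested.

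Nps was at 0 counts in all 7 tissue libraries, which allows up to 0.119 to 0.294 CPM. Its receptor gene Npsr1 was measured, at 1.32 ± 0.735 (SD, n = 3) in controls and 1.67 ± 0.345 (SD, n = 4) with N+F in TMM-scaled CPM, with an edgeR adjusted p of 0.906. Cell type markers also differed between the groups. Summed fibroblast and meningeal markers were 225 to 571 CPM in controls and 107 to 220 with N+F, without overlap. Summed astrocyte markers (2977 to 3793 against 2457 to 2915 CPM) and microglia markers (481 to 531 against 340 to 465 CPM) were likewise lower with N+F without overlap. The median astrocyte marker did overlap, at 117 to 140 CPM in controls and 104 to 125 with N+F. Sums of the other marker sets overlapped. Of all single genes tested, 4.19% had all N+F libraries below all controls. Hippocampal excitatory neuron markers summed to 769 to 950 CPM in controls and 463 to 799 in N+F libraries, with overlap. Striatum markers summed to 1268, 485 and 2349 CPM in controls 1 to 3, and to 2762, 2414, 2314 and 1754 in N+F libraries 1 to 4. The libraries labelled hippocampus thus held striatal marker RNA in uneven amounts. The part of these cells in the tissue levels of the 5 genes was not tested.

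**Figure D4:**
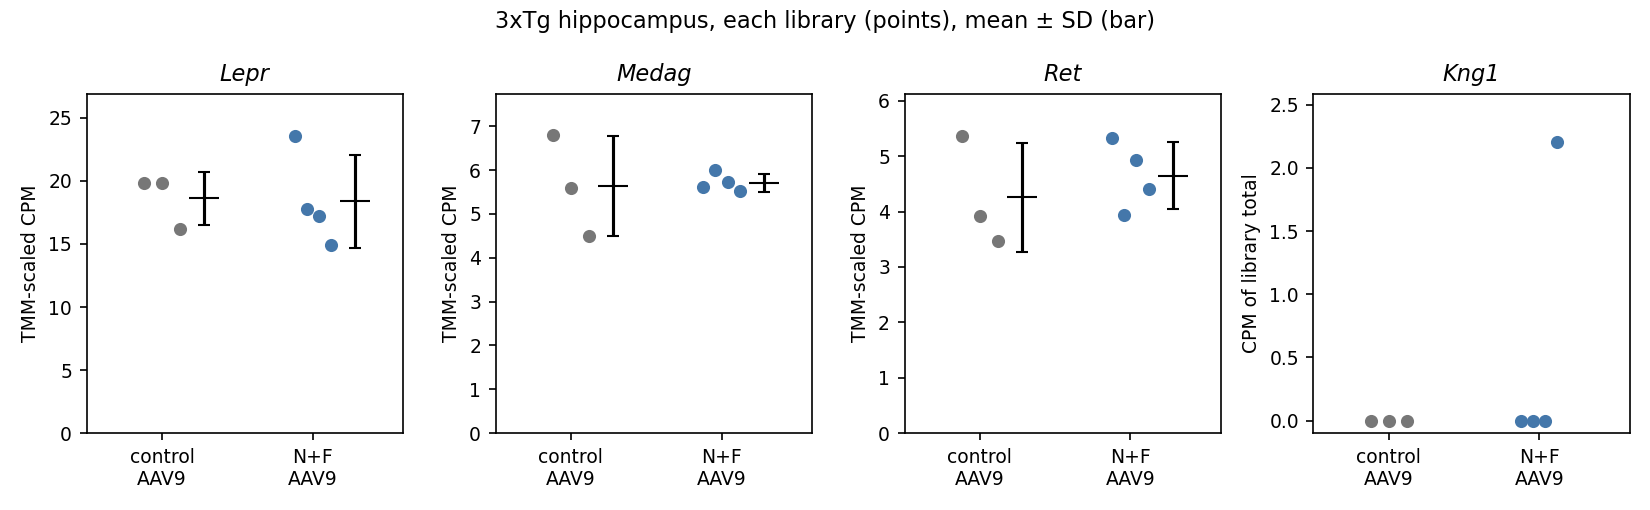
Levels in 3 control AAV9 and 4 N+F AAV9 libraries of 3xTg hippocampus: TMM-scaled CPM for Lepr, Medag and Ret with mean ± SD, and CPM of the library total for Kng1. Points of the groups overlap for Lepr, Medag and Ret, and Kng1 is at 0 except in N+F library 4, at 2.20 CPM.

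Partners and lists gave few calls in tissue. Gfra2 was 118 ± 10.5 (SD, n = 3) in controls and 147 ± 12.8 (SD, n = 4) with N+F, with all N+F libraries above all controls, an order that 3.92% of genes showed (4.19% showed the opposite order). Its log2 fold change was 0.31 ± 0.12 (SE), with an edgeR adjusted p of 0.493. Gfra1 and Leprot differed by 0.19 and 0.11 on the log2 scale, with edgeR adjusted p of 0.781 and 0.917. Gdnf, Bdkrb1, Bdkrb2 and Kng2 did not pass the filter. No gene passed of 16 leptin, 9 kinin, 20 GDNF, 18 adipogenesis, 15 dopamine neuron, 9 liver and endoderm, and 10 floor plate genes tested, and 1, 1, 2, 3, 2, 1 and 2 of them had an unadjusted p under 0.05. For comparison, 1313 of all 15523 genes tested had an unadjusted edgeR p under 0.05. Of 14 arousal genes 1 rose, the neurotensin gene Nts, from 13.8 ± 1.42 (SD, n = 3) to 32.0 ± 7.80 (SD, n = 4) TMM-scaled CPM, and 4 of the 14 had an unadjusted p under 0.05. The log2 fold change of Nts was 1.21, with an edgeR adjusted p of 0.0481, a call that was lost without any 1 of the 4 N+F libraries. Avp, Oxt and Crh also had an unadjusted p under 0.05. Their log2 fold changes were 1.79, 1.67 and 0.80, with edgeR adjusted p of 0.0611, 0.267 and 0.273. Striatum markers were uneven between these libraries, and the part of tissue from neighbouring regions in these values was not tested.

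Library-to-library likeness in tissue was sought as Pearson r of log2(CPM + 1) over the 7 libraries among 15522 genes. The nearest to Lepr were Nxpe3 (0.99), Ap4e1 (0.97) and Sema4b (0.95). The nearest to Medag were Fam228a, Rapgef1 and Ankrd16 (each 0.97), and the nearest to Ret were Tas1r1 (0.98), Scml2 (0.97) and Fhod3 (0.96). None of these 9 genes was among the culture neighbours of the same gene. With 7 libraries and this many genes, such values describe likeness and carry no test.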

How the data were processed

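RNA was extracted with Trizol and SMARTER mRNA-Seq libraries were made from 1.3 µg of total RNA, per the labels' protocols. The deposited tables hold whole-number counts per gene symbol; the authors used TopHat, HISAT2 and edgeR, per the submitters' processing notes, which also name the human build hg19, so no build was assumed for the counts. Lines sharing a symbol were summed (36780 lines to 24542 symbols in culture, 23282 to 23238 in tissue). The lines may be transcripts: of 6220 symbols with several lines and a RefSeq entry, 75.9% have as many lines as curated RefSeq transcripts. Reads shared by several lines would count more than once. Columns were matched to samples by title and 0 were left unused.

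Tissue counts were fitted with edgeR 4.0.16 in R 4.3.3 (filterByExpr by group, TMM factors 0.895 to 1.11, quasi-likelihood test, Benjamini-Hochberg adjustment over 15523 genes, biological coefficient of variation 0.206). Kng1 and Foxa2, below the filter, were compared by exact permutation. Culture values, 1 library per group, are CPM and log2 ratios of CPM + 1, with exact conditional binomial 95% intervals for count ratios and a floor of 3 counts. Transcript identity came from blastn 2.17.0 and promoters from RefSeq. The alternatives were DESeq2 1.42.0, other scaling, filter, pseudocount and line choices, a replicate block and leaving out each tissue library.

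The 5 genes, the gene lists and the naming rule were chosen with earlier results of these data known. Named beside the 5 genes were the delivered genes, direct partners whatever their values, list genes past the tissue test or at least 2-fold changed in both glia regions (at most 4 per list and direction), the 10 largest ratios and the 3 nearest patterns. Marker genes, and Slc18a2, Shh, Msx1, Avp, Oxt and Crh from the lists, are named beside the result they touch, after their values were seen.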

Additional observations from a re-analysis of the deposited data

Results flagged for a closer look

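In the 4 tissue N+F libraries, 4 genes had 1 library far from the others, by a gap to the next library that exceeded 0.829 of the range (Dixon's 95% criterion, which chance meets in about 1 of 20 groups of continuous values). Kng1 stood at 2.20 CPM in N+F library 4, and Kng2 at 1.14 CPM and Bdkrb2 at 0.734 CPM in the same library, each with the other 3 at 0, so that any count there would have met the criterion and its chance rate does not apply. Foxa2 stood at 2.55 CPM in N+F library 1.

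In culture the same genes were searched in each contrast between N+F, amyloid beta control and untreated glia. There 2 partner genes moved in opposite directions in the 2 regions on the log2 scale of CPM + 1, with counting intervals that excluded no change in each region. The difference between regions was not tested because each group is 1 library. Gfra1, N+F against amyloid beta control, was 0.16 in hippocampal and -0.63 in cortical glia. The hippocampal Gfra1 value lay near the median of all genes in that library pair, 0.12, so its direction may depend on the scaling. Npsr1, N+F against untreated, was 2.00 in hippocampal and -1.84 in cortical glia.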

How the results depend on the processing

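The tissue count of 17 calls became 131 with DESeq2, 29 without a count filter and 0 with a replicate block over numbers 1 to 3, which also leaves out N+F library 4, and ran from 0 to 29 when 1 library was left out. None of Lepr, Medag and Ret was called in any of these. Their small log2 fold changes changed sign: Lepr was 0.063 with the block and 0.065 without N+F library 4 alone, and leaving out 1 library gave -0.16 to 0.065 for Lepr, -0.13 to 0.17 for Medag and -0.018 to 0.32 for Ret. The cause was not tested. The mean Kng1 difference ran from 0 CPM, without N+F library 4, to 0.734 CPM. Nps, at 0 in all tissue libraries, gave no value. Control and N+F libraries of the same number did not deviate together (r of -0.01, -0.10 and 0.15), so the numbers were not taken to pair them.

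In culture 4 of the 5 genes stayed at least 2-fold higher with N+F in both regions under every setting. Lower pseudocounts enlarge ratios against near-zero controls by construction. With 0.1 CPM the log2 ratios in hippocampal and cortical glia were 7.44 and 10.04 for Lepr, 9.08 and 6.75 for Kng1, 8.55 and 5.99 for Nps and 5.01 and 5.49 for Medag, and 4.50 for Ret in hippocampal glia. TMM scaling gave 5.66 and 3.70 for Kng1, 7.41 for Lepr and 3.01 for Nps in cortical glia. Keeping only the line with the most counts gave 5.65 for Kng1, 5.99 for Lepr and 3.30 for Ret in hippocampal glia, and 6.35 and 2.98 for Nps. The count of genes higher in both regions was 419 with 0.1 CPM, and that of lower genes was 30 with 0.1 CPM and 41 with 1 line per symbol. The other 12 culture N+F ratios moved by less than their counting intervals. Of the amyloid beta to untreated ratios 6 moved by more and 15 by less, in the same direction: with 0.1 CPM they were -3.76 and -5.65 for Lepr, -1.96 and -5.50 for Medag and -2.08 for Ret in hippocampal glia, and cortical Lepr was -2.55 with 1 line. Of the N+F to untreated ratios 13 moved by more and 17 by less, and cortical Medag changed sign, from -0.014 to 0.19 with TMM scaling.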
